A study of Drosophila melanogaster with 3 samples.

Results

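The genes described here encode kinases and protein turnover factors of the Drosophila circadian clock: discs overgrown (dco, also known as doubletime), shaggy (sgg), Casein kinase II alpha and beta subunits (CkIIalpha and CkIIbeta), nemo (nmo), supernumerary limbs (slmb) and jetlag (jet). These 7 genes, of 13945 protein-coding genes, were chosen by name, with earlier results of these data known. A summit was counted for them when it lay in the gene or within 5 kb of it, which gave 52 of the 13583 optimal summits of the series, in 49 intervals. Optimal summits are the strongest of a pooled list of 30000 lines, kept by the authors after an irreproducible discovery rate (IDR) comparison of replicates, and each replicate also had a list of 30000 lines. The values were Pdp1 ChIP-seq peaks from whole embryos of both sexes, 0 to 24 h old, of a transgenic line stably expressing Pdp1 with a C-terminal GFP (Pdp1-eGFP). Sonicated chromatin was precipitated through GFP. There was 1 group, 3 biological replicates of the same fly line, with no second condition and no read counts, so no test between conditions was made and sequencing depth was unknown. In whole embryos, binding in few cells and weak binding in many cells cannot be told apart, and clock neurons cannot be separated from other tissues. How the tagged protein's level compared with that of untagged Pdp1 is not given in the sources used here.

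Pdp1, a PAR bZIP transcription factor, activates Clk, whose product drives per and tim in the fly clock. The proteins PER and TIM repress their own transcription, and the length of the cycle depends on how fast they are phosphorylated and destroyed. DCO, a kinase of the casein kinase 1 family, CK2, built of a catalytic subunit from CkIIalpha and a regulatory subunit from CkIIbeta, and NMO phosphorylate PER, while SGG, the fly GSK3, phosphorylates TIM. SLMB is the F-box protein that hands phosphorylated PER to a ubiquitin ligase, and JET is the F-box protein for the destruction of TIM in light. Most of these genes also act in Wnt, Hedgehog or planar polarity signalling.

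Summits lay in 6 of the 7 loci, against 71.1% of all protein-coding genes, and CkIIalpha was the gene without any. An optimal summit lay within 1 kb of an annotated transcription start site (TSS) of the gene itself at dco, sgg, CkIIbeta, nmo, slmb and jet, 6 of 7, against 44.1% of all protein-coding genes. The chance of being called grows with the number of TSSs. Among genes with 1 TSS, as nmo, slmb and jet have, 36.1% were called, among those with 2 to 4, as dco and CkIIbeta have, 64.9%, and among those with 5 or more, as sgg and CkIIalpha have, 90.0%. The 52 summits comprised 17 at nmo, 13 at sgg, 8 at dco, 6 at slmb, 5 at CkIIbeta and 3 at jet. Their density was 2.331 per 10 kb over the 7 loci, against 1.015 over the 6 chromosome arms. The median over all protein-coding genes with the same flanks was 1.33 per 10 kb, with quartiles of 0 and 2.634.

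Of the 52 summits, 36 lay inside the gene and 16 in its flanks. Introns held 27 of them, 5' UTRs 5, 3' UTRs 4 and coding exons 0. Another gene's TSS was nearest for 26 summits, so a summit counted for a locus need not belong to the gene it is named by. By position, 15 summits lay within 1 kb of the gene's own TSS, 13 within 1 kb of a neighbour's TSS alone, and 24 over 1 kb from any protein-coding TSS, of which 13 were at nmo and 6 at sgg. The authors' signal value per peak, which is relative to a control and serves to rank peaks within a list, had a median of 317.4 over the 52 summits, against 331 over all optimal summits. In the upper 10% of the optimal list, ranks 1 to 1358, stood 4 of the 52, a pair at sgg and a pair at slmb.

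**Figure D1:**
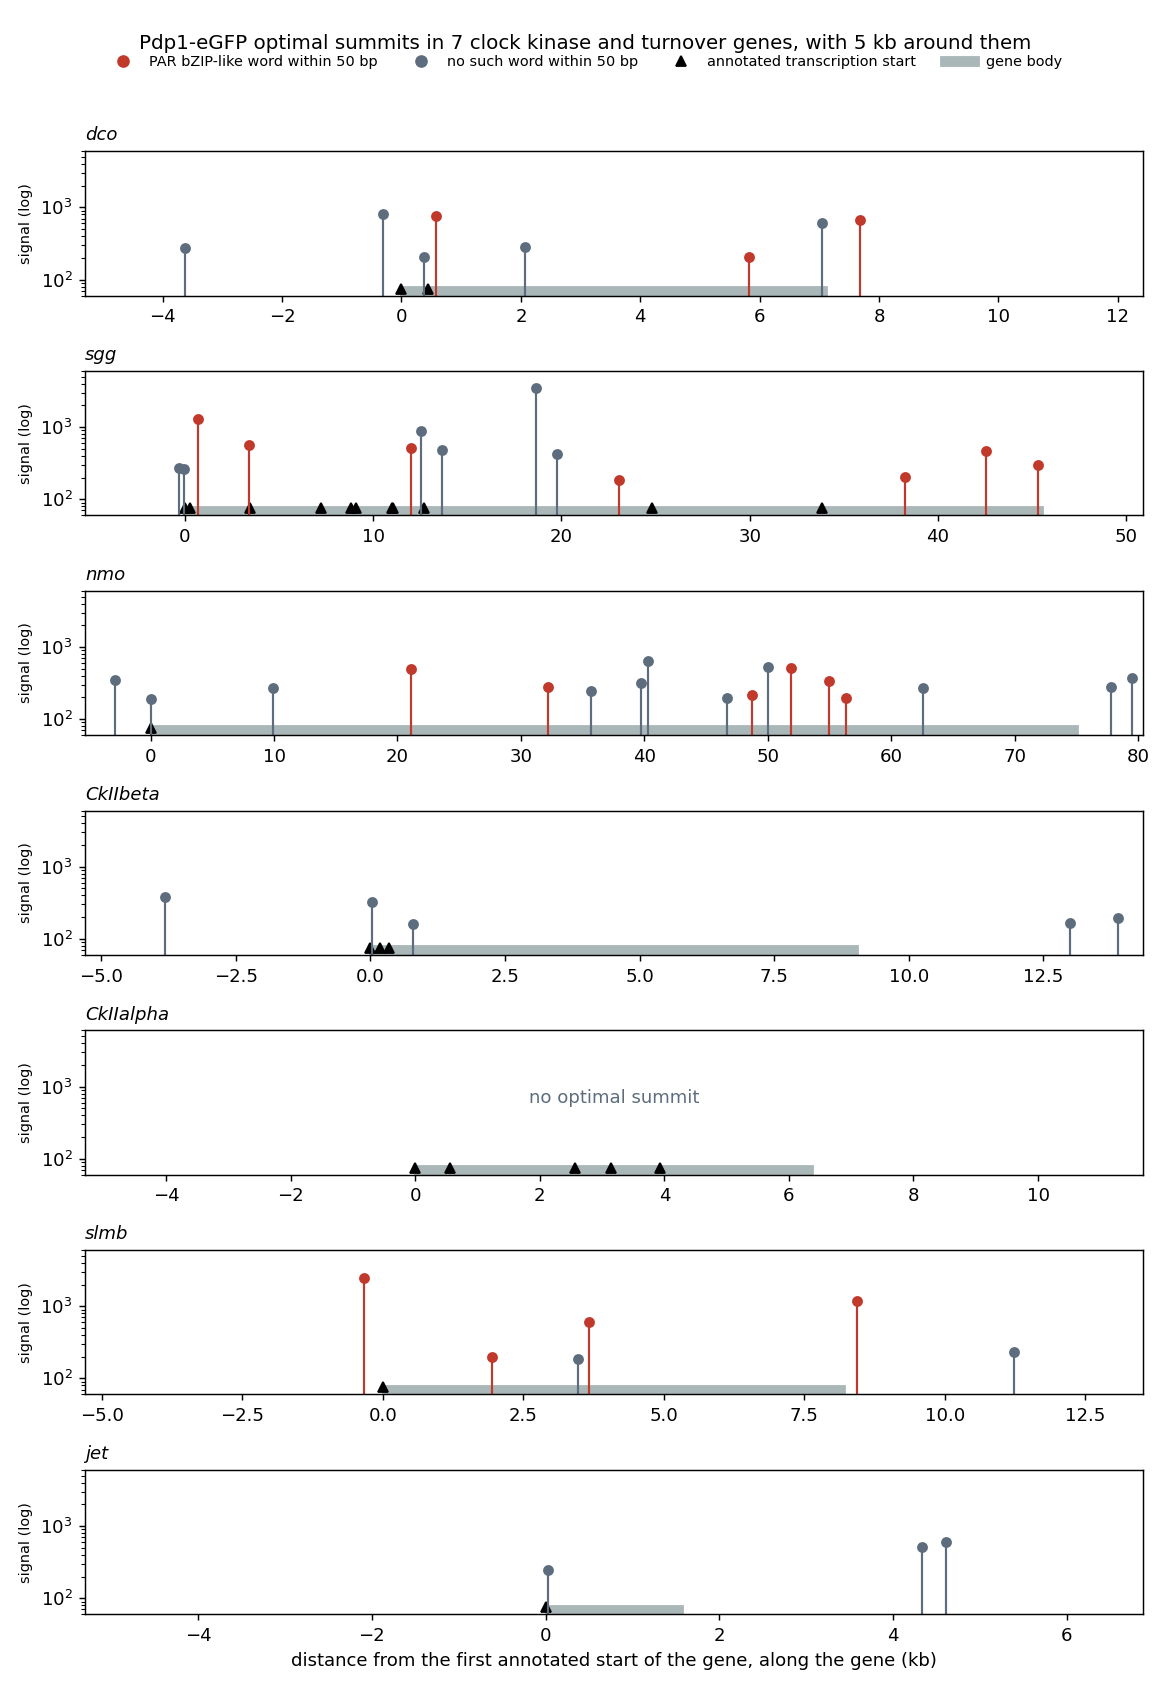
Optimal summits at the 7 genes, each panel running along the gene from its first annotated start (x axis, kb) with 5 kb on each side; the y axis is the authors' pooled signal on a log scale, red marks a PAR bZIP-like word within 50 bp, triangles are annotated starts and the grey bar is the gene. The tallest summits stand in an intron of sgg, at 3452, and at the start of slmb, at 2506, and CkIIalpha has none.

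The strongest binding at a kinase gene was in sgg, which spans X 2633952 to 2679553 on the plus strand of the Release 6 assembly (dm6) and has 19 transcripts from 11 TSSs. A summit lay within 1 kb of 6 of these 11 TSSs. The top summit was intronic, at 2652614, 5977 bp downstream of the nearest sgg TSS, with a pooled signal of 3452 and rank 64. Replicates 1, 2 and 3 gave it signals of 2194, 753 and 521, which are ranks 55, 140 and 90 of 30000 lines each. It stood among the strongest lines of every replicate, and no PAR bZIP-like word occurred anywhere in its 716 bp interval.

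Next in sgg was an intronic summit 435 bp downstream of the TSS of sgg-RH, with pooled signal 1314 and rank 704, and replicate ranks of 654, 947 and 1088. The summit sat 1 bp from the centre of TTACACAA. The summit 170 bp upstream of the TSS of the transcript sgg-RQ ranked 1519 in the pooled list, and 3762, 657 and 1005 in replicates 1, 2 and 3. Here replicate 1 was the lowest of the 3, and no word of the PAR bZIP form lay within 50 bp.

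The canonical PAR bZIP word was taken as TTACGTAA or TTATGTAA on either strand, so that TTACATAA, the reverse complement of TTATGTAA, counts too. The wider PAR bZIP-like form allows A or G at base 3, C or T at base 4, A or G at base 5 and C or T at base 6 of the same 8 bases, 16 words in all, which include the canonical ones. The canonical word stood at 3 sgg summits. The summit 91 bp upstream of the TSS of sgg-RC, in an intron of longer transcripts, held TTACGTAA 3 bp from its centre and an E-box, CACGTG, the word bound by CLK and CYC in the clock. It ranked 3209 in the pooled list with a signal of 575, and 2131, 10356 and 5082 in replicates 1, 2 and 3. A second copy of TTACGTAA lay at an intronic summit 1762 bp upstream of the TSS of sgg-RD and sgg-RP. This summit ranked 12134 in the pooled list, near the end of the optimal list, and 8623, 26041 and 25003 in the replicates. The last canonical word, TTACATAA, was in the 3' UTR of sgg at 2676480, where an exon of lncRNA:CR45197 overlaps, again with an E-box within 50 bp. That summit ranked 4304 in the pooled list and 3398, 9447 and 8423 in the replicates. All 3 canonical summits of sgg ranked highest in replicate 1.

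The sequences below set the strongest sgg summit, which has no word, beside those with one. They are plus-strand reference bases of dm6, 5' to 3', and capitals mark PAR bZIP-like words and the E-box.
sgg intron, chrX:2652564-2652664: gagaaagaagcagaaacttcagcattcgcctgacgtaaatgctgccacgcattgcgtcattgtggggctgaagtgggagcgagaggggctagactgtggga
sgg intron near the first starts, chrX:2634600-2634700: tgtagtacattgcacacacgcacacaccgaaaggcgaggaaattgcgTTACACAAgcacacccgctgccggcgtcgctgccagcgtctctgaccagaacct
sgg upstream of sgg-RC, chrX:2637284-2637384: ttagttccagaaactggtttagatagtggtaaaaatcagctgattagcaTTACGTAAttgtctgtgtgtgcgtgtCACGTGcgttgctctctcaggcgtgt
sgg upstream of sgg-RD, chrX:2656954-2657054: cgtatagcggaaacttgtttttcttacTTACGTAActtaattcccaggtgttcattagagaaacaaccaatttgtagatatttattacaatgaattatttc
sgg 3' UTR, chrX:2676452-2676481: agactcgctaaTTACATAAcacacacacac

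The remaining 7 sgg summits had pooled signals of 204 to 516.5 and ranks of 3752 to 11074, and 3 of them were found in all 3 replicates. A summit was called found in a replicate when a line among that replicate's 13583 strongest lay within 200 bp. The summit 302 bp upstream of the first sgg TSS had a line within 200 bp in replicate 1 alone, at rank 5123. Lines of replicates 2 and 3, at ranks 10667 and 4832, lay beyond that distance. They matched the next summit, 70 bp upstream of the same TSS.

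At dco, which spans 3R 31054085 to 31061210 on the minus strand, summits of middling strength flanked the start. The strongest was 313 bp upstream of the TSS shared by 4 of the 5 transcripts, at 31061523, with a pooled signal of 801 and rank 1783. It had signals of 350, 345 and 117 in replicates 1, 2 and 3 and ranked 3426, 787 and 2246, so replicate 2 placed it highest. No PAR bZIP-like word lay in its interval. The summit 142 bp downstream of the TSS of dco-RE, in a 5' UTR, ranked 2006 with a pooled signal of 748 and stood at ranks 2343, 2041 and 2405 in the replicates, nearly level across the 3. It lay 3 bp from the centre of TTATGCAA. Another summit 58 bp upstream of that TSS, rank 11089, matched the same lines of replicates 1 and 3 as the one before it and adds no separate measurement there. At the 3' end, the summit at 31053521, rank 2474, lay 394 bp downstream of the TSS of Chchd3, which encodes a mitochondrial protein, and was centred on TTGCATAA. Its replicate ranks were 1846, 3370 and 10705.

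The widest spread of summits was in nmo, which spans 3L 7979046 to 8054147 on the plus strand and has 8 transcripts from a common TSS. At that TSS the binding was weak: the summit 3 bp downstream had a pooled signal of 189 and rank 11848, and ranked 9561, 6078 and 13192 in the replicates. The introns held 13 summits, 9924 to 62587 bp from the TSS, with pooled signals of 195 to 633, so each of them was above the TSS summit. The strongest, at 8019370, ranked 2697 in the pooled list and 3700, 2504 and 1979 in the replicates, with no PAR bZIP-like word in its interval. The summit at 8029034, rank 3617, lay 416 bp from the start of tRNA:Ala-AGC-2-1, a tRNA gene inside nmo, and ranked 3745, 4311 and 3564 in the replicates.

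Canonical words stood at 3 of the 13 intronic summits of nmo, and 6 of the 13 had a PAR bZIP-like word. The summit at 8030902, with TTACGTAA, had a pooled signal of 515 and rank 3764, and ranked 2409, 19166 and 7255 in the replicates. Replicate 2 thus had a line there, but not among its 13583 strongest, so the summit was not called found in it. The summit at 8000162, with TTACATAA and TTGTGCAA, ranked 3982 in the pooled list and 2797, 11291 and 7684 in the replicates. The summit at 8034034, with TTACATAA, ranked 6596 in the pooled list and 6256, 6707 and 6977 in the replicates, close to each other. These 3 windows and that of the strongest nmo summit follow, as dm6 plus-strand bases with PAR bZIP-like words in capitals, to show how the words sit at distant intronic summits.
nmo intron, chr3L:8019320-8019420: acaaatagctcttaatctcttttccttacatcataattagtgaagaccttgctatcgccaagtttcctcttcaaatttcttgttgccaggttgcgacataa
nmo intron, chr3L:8030852-8030952: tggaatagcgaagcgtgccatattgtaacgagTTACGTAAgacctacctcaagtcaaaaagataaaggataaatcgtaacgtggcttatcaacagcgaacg
nmo intron, chr3L:8000112-8000212: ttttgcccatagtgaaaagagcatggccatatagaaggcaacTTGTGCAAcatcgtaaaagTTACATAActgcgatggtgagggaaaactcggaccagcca
nmo intron, chr3L:8033984-8034084: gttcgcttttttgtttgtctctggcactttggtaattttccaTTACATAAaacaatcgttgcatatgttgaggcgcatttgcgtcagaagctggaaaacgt

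The subunits of CK2 differed in the optimal list. CkIIbeta, at X 11792533 to 11801587 on the plus strand, had a summit 23 bp downstream of its first TSS, in a 5' UTR, with a pooled signal of 321 and rank 7048. It ranked 9827, 4585 and 4477 in replicates 1, 2 and 3, so replicate 1 placed it lowest. A second summit in CkIIbeta, 438 bp downstream of its TSS, ranked 13404, near the end of the list. The strongest summit of the locus, rank 5684, lay in a 5' UTR of the neighbouring gene Karl. It was 125 bp upstream of an internal Karl TSS and had replicate ranks of 7432, 4153 and 5168. None of the 5 summits had a PAR bZIP-like word within 50 bp.

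CkIIalpha, at 3L 23097072 to 23103460 on the plus strand, has 7 transcripts from 5 TSSs and had no line within 5 kb in the optimal or the pooled list. The nearest optimal summit was 48487 bp from a CkIIalpha TSS. Replicate 2 had a line 21 bp upstream of the TSS of CkIIalpha-RA, RB and RC, with a signal of 185 and rank 2358. Replicate 3 had a line 9 bp downstream of the same TSS, with a signal of 52.5 and rank 7369, and replicate 1 had none in the locus. Thus 2 of the 3 replicates had a line at this TSS that the pooled list did not have. Of the 7797 protein-coding genes with no optimal summit within 1 kb of a TSS, 286, or 3.67%, likewise had no pooled line there and a line in replicates 2 and 3. Lines were few around the gene: within 200 kb, the optimal list had 3, the pooled list 8, and replicates 1, 2 and 3 had 11, 31 and 9. The locus held 14 PAR bZIP-like words, none at an optimal summit.

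Of the turnover genes, slmb had the strongest TSS summit of all 7 genes. The gene spans 3R 21119252 to 21127485 on the minus strand, and its 3 transcripts start at a common TSS. The summit at 21127813, 328 bp upstream of this TSS, had a pooled signal of 2506 and rank 168. Replicates 1, 2 and 3 gave it signals of 1531, 568 and 421.5, at ranks 153, 285 and 162. All 3 replicates placed it near the top of their lists. The gene CG5793 has several TSSs on the other strand, the first of them 88 bp from that of slmb. The summit lay 69 bp downstream of the nearest CG5793 TSS, which is farther from slmb, in a 5' UTR of CG5793, so the binding cannot be assigned to slmb or CG5793. The word TTGCGCAA, which 1.08% of all optimal summits had within 50 bp, was centred 16 bp from the summit.

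The other slmb summit in the upper 10% was at 21119042, between the 3' end of slmb and Bdbt, 186 bp upstream of the TSS of Bdbt. Bdbt encodes Bride of doubletime, a protein that binds the kinase made by dco. This summit had a pooled signal of 1168 and rank 885, and ranked 688, 1297 and 1816 in the replicates, with TTATATAA 32 bp away. In an intron of slmb, 3674 bp from the TSS, the summit at 21123811 held TTACATAA. It ranked 2918 in the pooled list and 1670, 11946 and 11080 in the replicates, far higher in replicate 1 than in the others. A weaker summit at 21124012, rank 11975, matched the same replicate 1 line. The windows of the 3 stronger slmb summits, again dm6 plus strand with PAR bZIP-like words in capitals, differ in the word they hold; the first starts at the base after its summit.
slmb and CG5793 starts, chr3R:21127814-21127843: attaataaataTTGCGCAAgtaagtgccgt
between slmb and Bdbt, chr3R:21118992-21119092: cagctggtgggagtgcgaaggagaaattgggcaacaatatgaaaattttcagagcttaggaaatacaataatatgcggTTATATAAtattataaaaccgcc
slmb intron, chr3R:21123761-21123861: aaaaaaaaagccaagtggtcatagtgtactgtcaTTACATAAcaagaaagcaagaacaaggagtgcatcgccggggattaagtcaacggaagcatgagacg

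The smallest gene, jet, spans 2L 4948206 to 4949784 on the minus strand. Its summit 23 bp downstream of the TSS had a pooled signal of 244 and rank 9424, and ranked 9773, 7898 and 11397 in the replicates. The stronger summits of the locus were at mRpL24, a gene for a mitochondrial ribosomal protein, with pooled ranks of 2925 and 3860. They lay in the same interval. The first of these had no replicate 2 line within 200 bp, while the other ranked 1221 there and 7228 and 7092 in replicates 1 and 3. The different replicate 2 results thus come from the same interval. None of the 3 had a PAR bZIP-like word within 50 bp.

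Ordered by the rank of the strongest optimal summit within 1 kb of an own TSS, the genes were slmb (168), sgg (704), dco (1783), CkIIbeta (7048), jet (9424) and nmo (11848). The replicates kept slmb, sgg and dco above the other 3 bound genes in each list, while nmo, CkIIbeta and jet changed places between lists. Each replicate was also searched directly, over its 13583 strongest lines. Replicate 1 had a line within 1 kb of an own TSS at 6 of the 7 genes, against 42.1% of protein-coding genes, replicate 2 at 7 of 7, against 47.5%, and replicate 3 at 7 of 7, against 48.3%. The background averaged 46.0 ± 3.35% (SD, n = 3 replicates). In this search CkIIalpha stood above nmo, CkIIbeta and jet in replicate 2 and was missing in replicate 1.

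**Figure D2:**
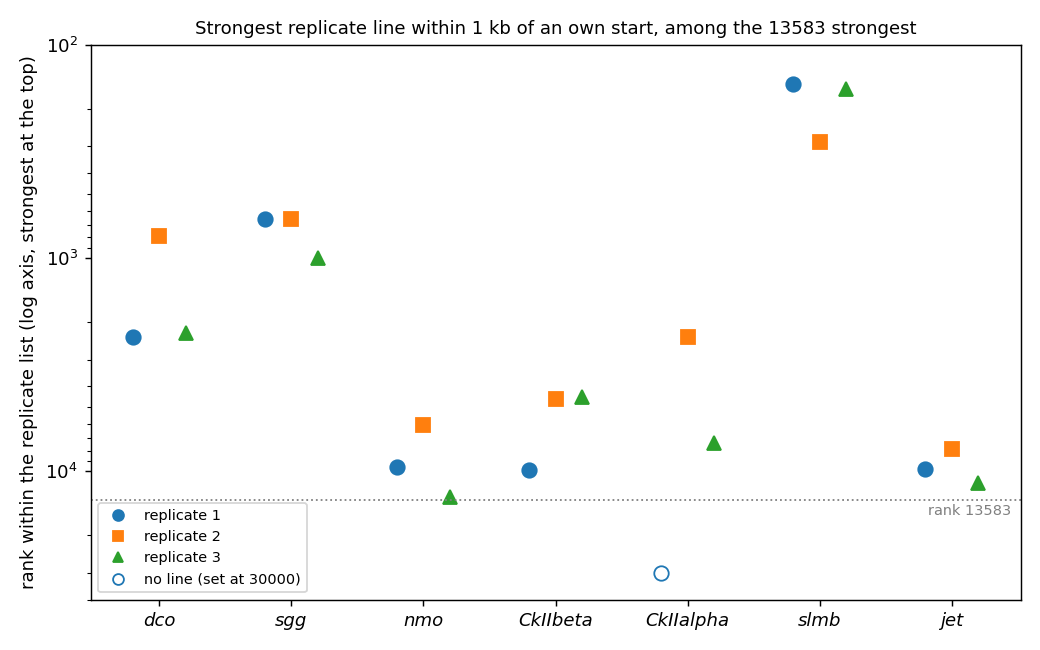
Rank, on a log axis with the strongest at the top, of the strongest line within 1 kb of an own start of each gene in replicates 1, 2 and 3, among the 13583 strongest lines of each list. slmb lies between ranks 153 and 285, and CkIIalpha has a line in replicates 2 and 3 and an open symbol, for no line, in replicate 1.

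By the rank pattern of its TSS summit over the 3 replicates, the gene most like slmb among 5594 others was CG5793, which shares the summit. CG13955 and prel followed, at a distance of 0.0577 in log10 rank, and share a summit with each other, with ranks of 158, 323 and 167.

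Across the 52 summits, 33 were found in all 3 replicates, or 63.5%, against 60.6% of all optimal summits, a share near the background. Replicate 1 had all 52, against 89.3% of all optimal summits. Replicate 2 had 37, or 71.2%, against 76.3%, and replicate 3 had 40, or 76.9%, against 79.2%. Found in replicate 1 alone were 8 summits, 15.4%, against 11.2%. These 8 comprised 3 at sgg, 3 at nmo and 2 at slmb. The slmb summit at 21124012 was counted there through the replicate 1 line that also matched its stronger neighbour. In all, 4 of the 52 summits shared a replicate line with another, a pair at dco and a pair at slmb.

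A canonical word lay within 50 bp of 7 of the 52 summits, 13.5%, against 12.0% of all optimal summits, and a PAR bZIP-like word within 50 bp of 20, 38.5%, against 35.8%. Both shares were near the background. In equally wide windows 300 bp to the left and to the right, 5 and 4 of the 52, 9.62% and 7.69%, had a PAR bZIP-like word. Over all optimal summits these shares were lower, 5.24% and 4.56%. A canonical word lay in 0 and 2 of these windows, 0.00% and 3.85%, against 0.847% on each side over all optimal summits. These differences rest on few summits and were not tested. The centre of the nearest word was 0 to 35 bp from the summit in these 20, with a median of 11.5 bp. The 20 comprised 7 at sgg, 6 at nmo, 4 at slmb and 3 at dco, and 13 of them were over 1 kb from any protein-coding TSS. Of all 128 PAR bZIP-like words in the 7 loci, 23 lay within 50 bp of a summit, 18.0%, against 7.80% over the arms. The loci also hold more summits per kilobase than the arms, and the part of that density in the difference was not tested. For canonical words the counts were 7 of 23, 30.4%, against 15.2%, with all 3 copies of the sgg locus at a summit and 3 of the 9 in the nmo locus.

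The E-box CACGTG lay within 50 bp of 4 of the 52 summits, 7.69%, against 186, or 1.37%, of all optimal summits. A pair of these were the sgg summits described above, where the E-box accompanied TTACGTAA or TTACATAA. The others were at neighbouring genes. In the flank of CkIIbeta, a summit of rank 11602 lay in an intron of Hsc70-3, 62 bp upstream of an internal TSS of that gene. In the flank of slmb, a summit of rank 9788 lay 11 bp upstream of the TSS of ppan. The difference rests on 4 summits and was not tested. The promoter word TATCGATA (DRE) was at 0 of the 52, against 1.91%. A match describes the letters in the window and does not show which factor was bound.

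**Figure D3:**
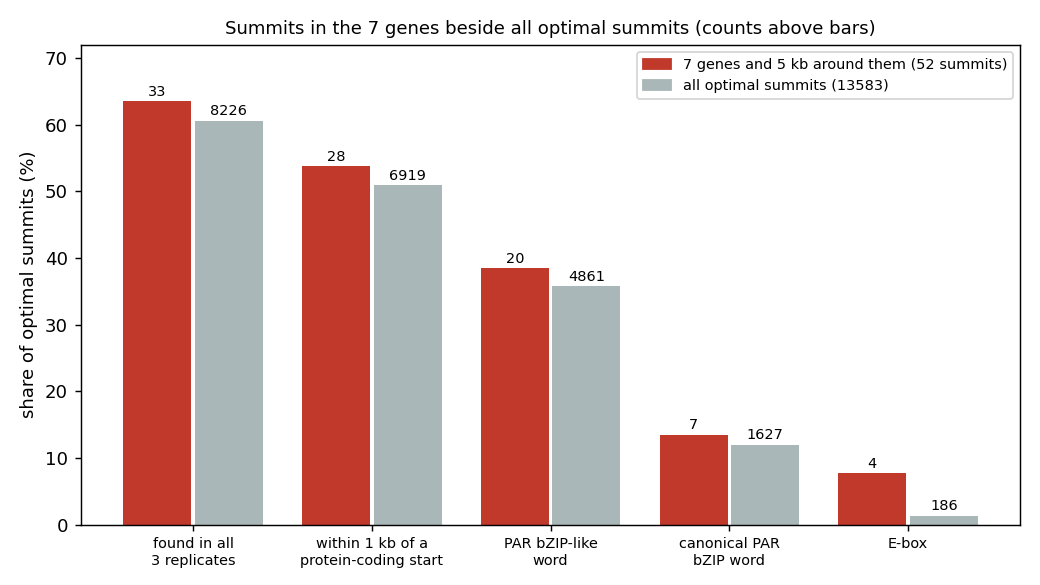
Share (y axis, %) of the 52 summits of the 7 genes (red) and of all 13583 optimal summits (grey) that all 3 replicates found, that lay within 1 kb of a protein-coding start, or that had a named word within 50 bp, with counts above the bars. The first 4 pairs of bars are near each other, and the E-box stands at 7.69% against 1.37%.

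Summits with and without a PAR bZIP-like word ranked differently between replicates. Of the 20 with a word, 18 ranked higher in replicate 1 than in replicate 2 and 19 higher than in replicate 3. Of the 32 without, the counts were 14 and 12. The median ranks of the 20 were 2797, 11291 and 7684 in replicates 1, 2 and 3, and those of the 32 were 7228, 6078 and 6251. Over all optimal summits the medians were 4450, 9843 and 9288 with a word and 8352, 6210 and 6368 without. In both sets replicate 1 gave the highest median rank to summits with a word and the lowest to those without. All 3 replicates found 10 of the 20 summits with a word, 50.0%, against 53.7% of all optimal summits with a word. They found 23 of the 32 without, 71.9%, against 64.4% of all optimal summits without. The lists give no date, run or depth for replicate 1, and the part of such differences in this pattern was not tested.

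**Figure D4:**
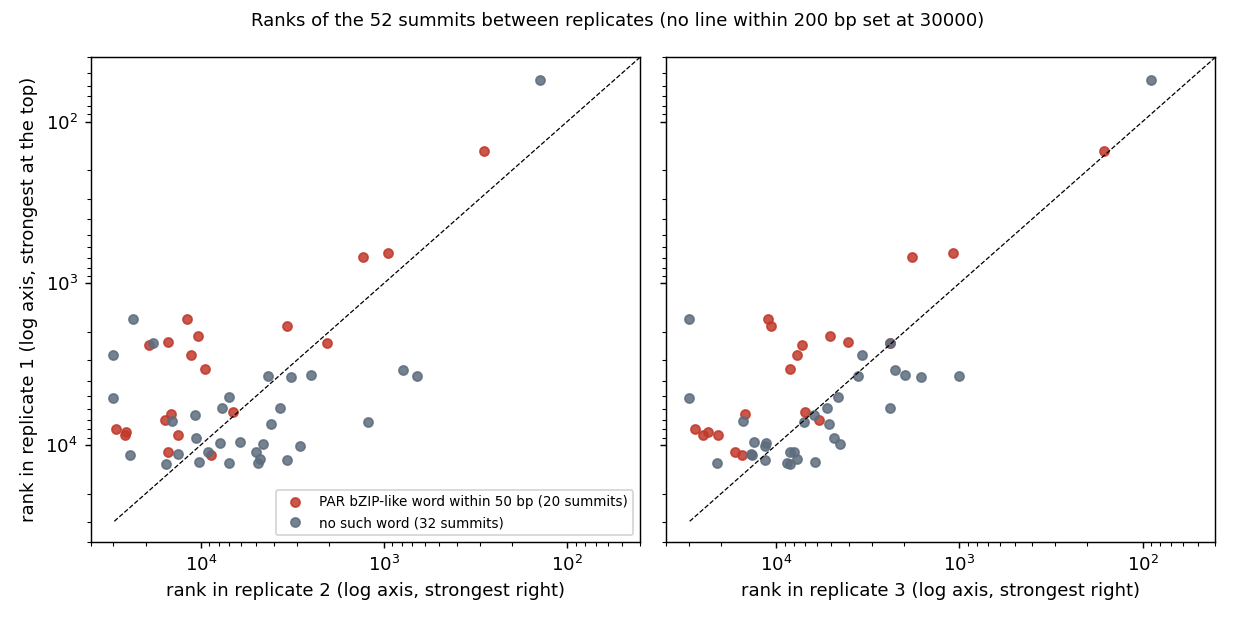
Rank in replicate 1 (y axis) against rank in replicate 2 (left) or replicate 3 (right) for the 52 summits, log axes with the strongest at the top and right; points above the dashed line rank higher in replicate 1, and a summit with no line within 200 bp is set at 30000. Red points, with a PAR bZIP-like word, lie above the line for 18 of 20 summits on the left and 19 of 20 on the right.

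Genes that act with the 7 were read the same way, by an optimal summit within 1 kb of an own TSS, beside the 44.1% of all protein-coding genes and the shares of 36.1%, 64.9% and 90.0% for genes with 1, 2 to 4 and 5 or more TSSs. Several of them have more than 1 TSS, among them vri with 3, SkpA with 4 and CkIalpha with 5. The core clock genes were bound at 6 of 8, all except per and cry, with Pdp1, the tagged gene, at rank 1, vri at 891 and Clk at 3210. The clock phosphatase genes were bound at 4 of 5, led by wdb at 2013, and flw was not. Of the genes listed as SCF and Cullin machinery, 6 of 9 were bound, led by SkpA at 870 and Cul3 at 1530, while Roc1a, CSN5 and Usp8 were not. Of the Wnt and Hedgehog partners of the kinases, 9 of 10 were bound, led by Apc2 at 355, and fu was not. The other casein kinase 1 genes listed, gish at 124 and CkIalpha at 6036, were bound, as was Bdbt through the summit next to slmb.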

How the data were processed

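Peak lists in narrowPeak format from 3 biological replicates of Pdp1-eGFP embryos were used, on dm6: the optimal list, the relaxed pooled list and a relaxed list per replicate. The deposited signal is the authors' own value per peak against a control, and its scale differed between lists, so values were compared by rank within a list. The deposited −log10 q-value was capped and was not used for tests. For the aligner, peak caller and IDR, versions were not given in the sources used here. Each relaxed list held 30000 lines, and depth was unknown. All 13583 optimal lines were the strongest pooled lines. Control libraries, signal tracks and dm3 lists were not used here.

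Each line counted as a summit, its start plus its summit offset, 1-based. Gene models were those of Ensembl release 115 (BDGP 6.54), and bases were read from the RefSeq copy of the Release 6 genome. Replicate lines within 200 bp matched, and words were looked for within 50 bp on both strands. Given in full were, for each gene, the strongest summit, the strongest within 1 kb of an own TSS, summits in the upper 10% and summits with a canonical word. Summits outside this rule, and the E-box and DRE words, were added after values were seen. The members, lists and words were chosen with earlier results of these data known. Python 3.11.15 and matplotlib 3.10.9 were used, and the code was tested on simulated data. The alternatives varied flanks, windows, list thresholds, matching distance and replicates.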

Additional observations from a re-analysis of the deposited data

How the results depend on the processing

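Of 40 alternatives to the counts, 29 stayed within 1.5 times the value reported. The 52 summits were 25 in the upper 50% of the optimal list and 106 in the whole pooled list. Demanding both remaining replicates as each replicate was left out gave 33 to 40 summits, with 33 without replicate 1. The 6 genes with a summit at an own TSS were 3 in the upper 50% of the list, dco, sgg and slmb, and 6 with each replicate left out. The 33 summits found in all 3 replicates were 11 when the lines compared in each replicate were limited to the upper 50%, and 33 to 40 with a replicate left out. The 20 summits with a PAR bZIP-like word were 10 to 13 on leaving out a replicate, 10 without replicate 1, 13 without replicate 2 and 12 without replicate 3, and the 7 with a canonical word were 5 to 6. The 23 PAR bZIP-like words at a summit were 11 to 14. These alternatives keep only summits found in both other replicates, so counts of summits and words with no such demand can only fall. Of 156 pairs of summit and replicate, 152 had a line within 200 bp. Chosen after seeing the data were the leave-out counts of the 52 summits, of summits with a word and of words at a summit, the other distances for words at a summit, and the other distances for the 156 pairs. No paired analysis was possible because the series holds 1 group. With no read counts, it cannot be told whether a missing replicate line reflects depth.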

Other observations

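Several summits counted for the 7 loci lay at starts of neighbouring genes, and some of these had higher signals than the summit at the TSS of the gene itself. At dco, the strongest dco summit had a pooled signal of 801, against 668 and 611 for the summits within 1 kb of the TSS of Chchd3. Sox100B, which encodes a transcription factor of the SOX family, starts 4043 bp from dco on the other strand, and the summit 423 bp upstream of it ranked 8465. The nmo TSS summit ranked 11848, against 6459 for the summit 23 bp upstream of the TSS of HP4, which encodes a heterochromatin protein. On the other side of nmo, bip1 had a summit 147 bp downstream of its first TSS at rank 5908. Another, at rank 8197, lay in an intron of bip1, 488 bp upstream of a later bip1 TSS. The jet TSS summit had a pooled signal of 244, against 607 and 506 for the mRpL24 summits. These comparisons are of pooled ranks and signals within the optimal list, with no test.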
